A study of Mus musculus with 2 samples.

Results

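The genes described here are 46 ion channel, gap junction and calcium handling genes of the heart, and the data are places where the histone chaperone HIRA was mapped near them. The genes were taken by name from a list of cardiac sodium, potassium, calcium and pacemaker channels, connexins and proteins that move calcium. All 46 names matched 1 protein-coding gene each in the GENCODE M21 annotation, which holds 21938 protein-coding genes. HIRA is a chaperone that loads the replacement histone H3.3 independently of DNA replication, and the study asked where it sits in the embryonic heart. Chromatin came from 30 pooled wild type hearts of CD1 mouse embryos at E12.5, cross-linked with EGS and formaldehyde. It was precipitated with the WC15 antibody to HIRA, and input chromatin of the same tissue was the control. The pool held whole hearts, so all cardiac cell types were mixed. There is 1 ChIP library and 1 input library, so no error between hearts or precipitations can be given and no test between groups was possible. The file analysed is the list of 6624 regions, called peaks, where ChIP reads exceeded the input. It gives positions on mm10 and no height, so each peak counted once, and the depth of the reads is unknown. It holds no expression values, so it does not show whether each gene was active in these hearts. The study also sequenced RNA from other hearts, including at E12.5, and those values were not used here.

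These genes carry the heartbeat. Sodium and calcium channels depolarise the cardiomyocyte, potassium channels repolarise it, pacemaker channels start the beat, and connexins pass it from cell to cell. Calcium that enters through L-type channels opens ryanodine receptors on the sarcoplasmic reticulum, the internal calcium store, and the released calcium drives contraction until pumps and exchangers remove it. Many of these genes are long, with large introns, and length is a property that the counts below must be read against.

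Of the 46 genes, 15 had at least 1 HIRA peak inside the gene or at most 5 kb from it (32.6%, 95% Wilson interval 20.9 to 47.0%). Over all protein-coding genes the share was 11.1%. All 15 had a peak in the body itself, where the share over all protein-coding genes was 8.9%. The list is long-gened, however. The median length of the 46 genes was 63.8 kb, against 17.4 kb for the other protein-coding genes. When each gene was set beside the 200 protein-coding genes nearest to it in length, the shares with a peak among those neighbours added up to 13.2 genes, or 28.7% of 46. The observed 15 genes were 1.14 times that number, and 28.7% lies inside the interval given above. The intervals cover counting error only, and neighbouring or related genes are not independent.

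The number of peaks gave the same picture. The 46 gene regions, each with 5 kb on either side, spanned 8.57 Mb and held 23 peaks, a density of 2.69 per Mb (exact Poisson interval 1.70 to 4.03). The other protein-coding genes held 2.44 per Mb. Genes of like length would have given 19.7 peaks. No peak was counted for more than 1 of the 46 genes. Cacna1c had 3 peaks, 6 genes had 2, 8 genes had 1 and 31 genes had none.

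Peaks were most frequent in the longest genes. All 7 genes of 400 kb or more had a peak, as did 76.7% of the other protein-coding genes of that length. Between 200 and 400 kb it was 5 of 9 genes, against 49.4% of the others, and between 100 and 200 kb 1 of 6, against 31.1%. Between 50 and 100 kb it was 0 of 4, against 16.5%, and between 20 and 50 kb 2 of 9, against 8.65%. Below 20 kb none of 11 genes had a peak, and 4.42% of the others did. Kcnh2 and Hcn4 were the only 2 of 24 genes below 100 kb with a peak. In the plot of shares by length the other genes rise from class to class, whereas the 46 genes, with few in each class, do not rise at every step.

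**Figure D1:**
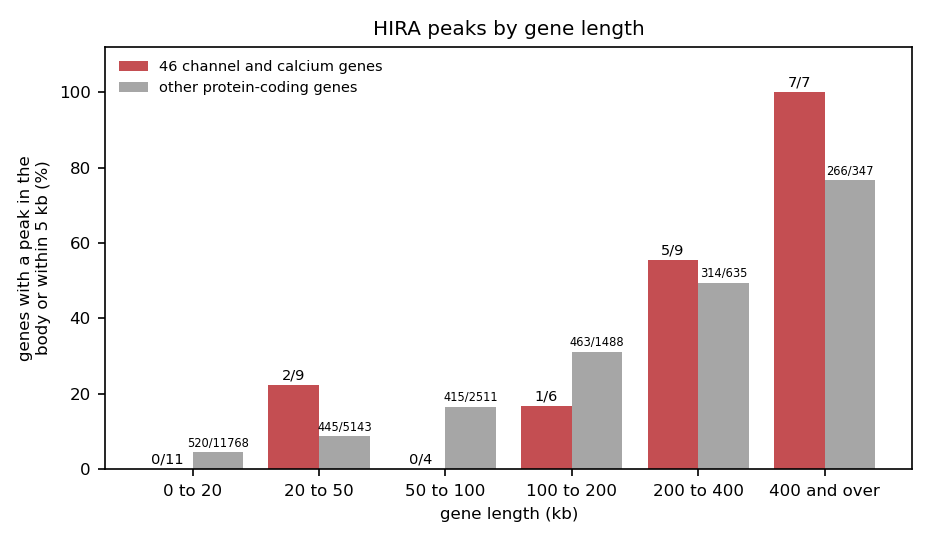
Percent of genes with a HIRA peak inside or up to 5 kb away (vertical axis), by gene length in kb (horizontal axis), for the 46 channel and calcium genes (red) and other protein-coding genes (grey), with the number of genes with a peak over the number in the class above each bar. The share rises with length in the other genes from 4.42% below 20 kb to 76.7% at 400 kb and over, and 12 of the 15 red genes with a peak are in the last 2 classes.

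The median distance from a gene body to its nearest peak was 46.6 kb over the 46 genes, with 15 genes at 0 and a largest value of 758 kb. It was 116 kb over the other protein-coding genes. For genes of like length, the median of the 46 neighbourhood medians was 94.98 kb. A median of medians is not the same statistic as a median of single distances, so it is only a rough reference for 46.6 kb. In all, 20 genes were nearer than the median of their neighbours in length, 16 were farther and 10 were equal to it at 0. The 5 kb limit fell in a gap. The outermost peak inside it lay 2.46 kb past the end of Cacna2d1. The first gene outside it was Kcnj5 at 6.73 kb, followed by Gja1 at 11.6 kb and Pln at 12.8 kb.

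**Figure D2:**
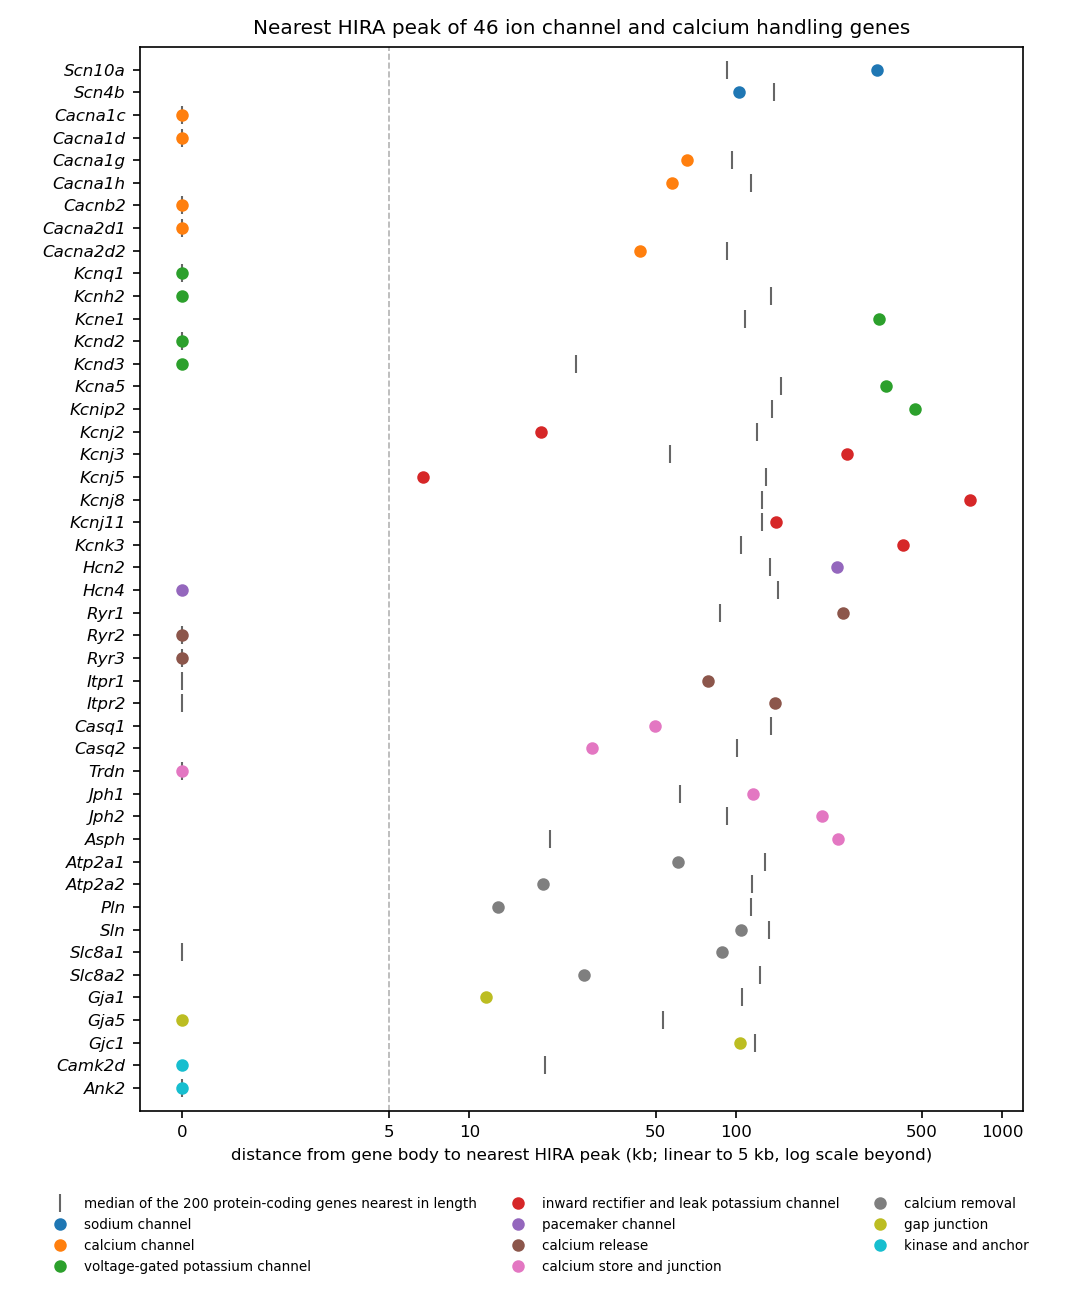
Distance in kb from each of the 46 gene bodies to the nearest HIRA peak (horizontal axis, linear to 5 kb and log scale beyond), coloured by role, with a grey tick at the median of the 200 protein-coding genes nearest in length and a dashed line at 5 kb. The 15 genes with a peak in the body sit at 0, and the other 31 run from Kcnj5 at 6.73 kb to Kcnj8 at 758 kb.

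The calcium channel genes were examined first. Of 7 genes, 4 had a peak, and genes of like length would have given 3.07. Cacna1c encodes the pore of the cardiac L-type channel, the entry route for trigger calcium. It is the longest gene of the list at 609 kb (chr6:118587240-119196418, minus strand). Its 3 peaks all lay in intron 3 of 46, at 153, 307 and 311 kb from the gene start. They differed in sequence. The peak at 153 kb (chr6:119043751-119043948) held no 32-base word that occurs more than once in the genome, here called a multi-copy word. The peak at 311 kb (chr6:118884839-118885013) was a pyrimidine-rich tract with the GAGAGAGA repeat on the minus strand, and 6.25% of its words were multi-copy. The peak at 307 kb (chr6:118888865-118889082) was soft-masked over its whole length, which in the assembly marks repeated sequence, and 100% of its words were multi-copy. The first of these is printed, from the plus strand of the GRCm38.p6 reference genome, because it was the only peak of the 23 with matches to both the GATA and the NKX2.5 motif, shown in capitals in that order. It was picked after its sequence was seen.
Cacna1c peak at 153 kb: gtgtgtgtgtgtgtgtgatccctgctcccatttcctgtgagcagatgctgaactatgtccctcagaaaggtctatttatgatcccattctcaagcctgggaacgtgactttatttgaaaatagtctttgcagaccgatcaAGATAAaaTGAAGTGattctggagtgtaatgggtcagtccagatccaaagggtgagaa

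Cacna1d encodes the L-type pore of the sinoatrial and atrial myocardium (452 kb, chr14:30039939-30491455). Its 1 peak, at chr14:30208059-30208236 in intron 3 of 46, lay 283 kb from the gene start. This peak overlapped Gm47570, which GENCODE lists as a processed pseudogene, a copy of a messenger RNA inserted in the genome. None of its bases was soft-masked and none of its words was multi-copy. It is one of 6 peaks without a soft-masked base, which are shown for that reason, on the plus strand of GRCm38.p6 like all those below unless stated.
Cacna1d peak: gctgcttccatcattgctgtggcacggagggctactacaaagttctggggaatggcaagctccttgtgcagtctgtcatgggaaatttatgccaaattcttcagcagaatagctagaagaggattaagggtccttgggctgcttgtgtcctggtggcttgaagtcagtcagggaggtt

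Cacnb2, the main cardiac beta subunit of the channel (385 kb), had 1 peak in intron 2 of 13, 257 kb from the gene start (chr2:14860083-14860259). This peak held the longest unbroken GA run of the 23, of 21 bases, next to a CA repeat of 42 bases. The GA run is in capitals.
Cacnb2 peak: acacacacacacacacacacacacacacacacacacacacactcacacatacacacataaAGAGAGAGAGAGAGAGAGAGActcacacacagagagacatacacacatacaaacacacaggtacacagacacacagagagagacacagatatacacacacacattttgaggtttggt

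Cacna2d1, which encodes the extracellular alpha2delta subunit (440 kb, chr5:15934691-16374511, plus strand), had 2 peaks. The first, in intron 20 of 38 at 395 kb from the gene start, was the only one of the 23 that overlapped an exon of its gene, that of a transcript annotated as a retained intron. It had no multi-copy word and a GC content of 28.7%. The second lay outside the gene, 2.46 kb past its end at chr5:16376973-16378073. At 1101 bases it was the third widest of all 6624 peaks, and the other 22 peaks of these genes were between 168 and 319 bases wide. It was a tandem repeat of AGAT, in which 83.2% of bases equalled the base 4 positions before, with a longest pure run of 60 bases. All of its words were multi-copy. The exonic peak is printed.
Cacna2d1 peak in intron 20: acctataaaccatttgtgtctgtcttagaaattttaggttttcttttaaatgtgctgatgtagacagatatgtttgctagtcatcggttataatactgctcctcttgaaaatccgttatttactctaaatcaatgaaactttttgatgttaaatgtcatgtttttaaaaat

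The remaining calcium channel genes had no peak. The T-type pore genes Cacna1h and Cacna1g, whose channels open at low voltage, were 57.4 and 65.7 kb away, both with the nearest peak past the gene end. Cacna2d2, a second alpha2delta gene, was 43.7 kb away. All 3 were nearer to a peak than the median of genes of like length, which was between 92.5 and 114 kb.

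Of the 7 voltage-gated potassium channel genes 4 had a peak, against 1.91 in genes of like length. Kcnq1 and Kcnh2 encode the pores of the slow and rapid delayed rectifier currents that end the action potential. Kcnh2 is 32.02 kb long (chr5:24319589-24351604, minus strand). Its peak at chr5:24348733-24348983 was in intron 1 of 14, 2.75 kb from the gene start. That was the shortest distance from a gene start in the set and the only one under 5 kb. Among the 200 genes nearest in length, 5% had a peak within 5 kb. The peak was 251 bases wide, had the highest GC content of the 23 at 63.7%, and held no soft-masked base and no multi-copy word.
Kcnh2 peak: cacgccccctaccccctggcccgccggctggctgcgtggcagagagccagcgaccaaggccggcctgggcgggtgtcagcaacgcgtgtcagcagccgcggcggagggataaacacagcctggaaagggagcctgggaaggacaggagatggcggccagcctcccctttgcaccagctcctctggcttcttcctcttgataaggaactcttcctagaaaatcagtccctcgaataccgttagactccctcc

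Kcnq1 (321 kb, chr7:143106362-143427042, plus strand) had 2 peaks. The first, at chr7:143112777-143112972 in intron 1 of 15, lay 6.51 kb from the gene start and 3.68 kb from the start of another coding transcript. It had no soft-masked base and no multi-copy word. The second, at chr7:143371205-143371390 in intron 15 of 15, lay 265 kb from the gene start. It was a mixture of CA, TCTG and GA repeats with a GA run of 19 bases, and 65.8% of its words were multi-copy. The first is printed.
Kcnq1 peak in intron 1: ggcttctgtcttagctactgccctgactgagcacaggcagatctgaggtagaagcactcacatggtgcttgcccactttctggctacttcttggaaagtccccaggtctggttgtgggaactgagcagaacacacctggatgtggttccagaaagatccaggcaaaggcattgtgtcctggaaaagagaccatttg

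Kcnd2 and Kcnd3 encode the pores of the transient outward current. Kcnd2 (514 kb) had 2 peaks, both in intron 1 of 5, at 32.8 and 108 kb from the gene start. The nearer held a CA repeat of 35 bases. The farther held a pure tandem repeat of AAGGG or its complement over 102 of its 190 bases, and 66.0% of its words were multi-copy.

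Kcnd3 (222 kb) had 1 peak in intron 2 of 6, 144 kb from the gene start, which was soft-masked throughout and in which every word was multi-copy. The remaining 3 genes of the group lay far from any peak. Kcne1, the beta subunit of the Kcnq1 channel, was 346 kb from the nearest, which was inside Runx1. Kcnip2, the calcium-binding subunit of the transient outward channel, was 470 kb away, and Kcna5, the pore of the ultrarapid delayed rectifier, was 365 kb away. Among genes of like length 85.5, 94.5 and 88.0% were nearer to a peak than these 3.

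None of the 6 inward rectifier and leak potassium channel genes had a peak, and genes of like length would have given 0.590. Their distances spanned the widest range of any group. Kcnj5, a subunit of the acetylcholine-activated channel that slows the atrial rate, was 6.73 kb from a peak past its end. Its partner Kcnj3 was 261 kb away. Kcnj2, the main pore of the resting potassium current, was 18.6 kb from a peak past its end. The pores of the ATP-sensitive channels, Kcnj8 and Kcnj11, were 758 and 142 kb away. Kcnj8 was the farthest of all 46 genes, and 96.5% of genes of like length were nearer to a peak. Kcnk3, a background leak channel, was 424 kb away.

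Pacemaker channels carry the inward current that depolarises sinoatrial cells between beats. Hcn4, the main sinoatrial form, is 39.8 kb long (chr9:58823412-58863175, plus strand). It had a peak at chr9:58837290-58837464 in intron 1 of 7, 14.0 kb from the gene start. Of the 200 genes nearest in length, 11% had a peak. The Hcn4 peak resembled that of Kcnh2, with a GC content of 61.7%, no soft-masked base and no multi-copy word. Hcn2 had none, and its nearest peak was 240 kb before its start.
Hcn4 peak: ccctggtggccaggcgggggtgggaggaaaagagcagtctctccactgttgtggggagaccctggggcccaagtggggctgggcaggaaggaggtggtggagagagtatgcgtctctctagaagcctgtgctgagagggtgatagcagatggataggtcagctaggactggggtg

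The 2 sodium channel genes of the list had no peak, and genes of like length would have given 0.300. Scn10a, which encodes a pore subunit, was 337 kb from the nearest, and 80.5% of genes of like length were nearer. Scn4b, a beta subunit, was 103 kb from a peak inside Il10ra.

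Calcium release channels come next. Of 5 genes 2 had a peak, and genes of like length would have given 2.85. Ryr2, the release channel of the cardiac sarcoplasmic reticulum (554 kb, chr13:11553102-12106945, minus strand), had 1 peak at chr13:11733705-11733901 in intron 38 of 104. It lay 373 kb from the gene start. None of its 197 bases was soft-masked, but the peak was a tandem repeat. The 15-base word in capitals occurred 9 times, 79.1% of the bases equalled the base 15 positions before, and 71.7% of its 32-base words were multi-copy.
Ryr2 peak: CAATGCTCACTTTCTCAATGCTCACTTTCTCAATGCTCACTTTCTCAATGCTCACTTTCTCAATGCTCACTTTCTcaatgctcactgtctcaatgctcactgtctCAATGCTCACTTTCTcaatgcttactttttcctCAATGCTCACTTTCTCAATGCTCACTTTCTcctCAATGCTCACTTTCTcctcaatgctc

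Ryr3, a ryanodine receptor best known from brain and smooth muscle (586 kb), had 2 peaks, in introns 10 and 1 of 103, at 280 and 13.0 kb from the gene start. Both were soft-masked and multi-copy throughout, and they were copies of the same repeat as the Cacna1c peak at 307 kb. The Ryr3 peak in intron 10 shared 102 of its 206 words with that Cacna1c peak, and the Ryr3 peak in intron 1 shared 44 of 193. The 2 Ryr3 peaks shared 47 words. A stretch of 65 bases, in capitals, was identical in all 3. The Cacna1c peak is shown on the plus strand of the assembly and the Ryr3 peaks on the minus strand. These were picked for printing after their sequences were seen, because reads from such near-identical copies are hard to place.
Cacna1c peak at 307 kb (chr6:118888865-118889082): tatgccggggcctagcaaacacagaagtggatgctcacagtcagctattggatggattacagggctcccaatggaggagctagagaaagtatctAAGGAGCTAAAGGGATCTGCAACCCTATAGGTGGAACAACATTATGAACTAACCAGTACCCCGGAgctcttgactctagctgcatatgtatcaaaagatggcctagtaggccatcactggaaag
Ryr3 peak in intron 10 (chr2:112937339-112937575): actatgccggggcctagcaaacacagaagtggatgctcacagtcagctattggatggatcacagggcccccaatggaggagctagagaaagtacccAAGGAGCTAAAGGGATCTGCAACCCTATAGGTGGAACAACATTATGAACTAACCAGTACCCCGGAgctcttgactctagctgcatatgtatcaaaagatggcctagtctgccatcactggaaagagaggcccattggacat
Ryr3 peak in intron 1 (chr2:113203947-113204170): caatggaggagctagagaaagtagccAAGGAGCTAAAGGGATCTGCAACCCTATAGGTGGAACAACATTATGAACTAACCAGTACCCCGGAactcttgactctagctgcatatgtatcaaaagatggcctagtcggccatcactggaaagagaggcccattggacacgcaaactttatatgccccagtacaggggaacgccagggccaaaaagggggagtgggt

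The skeletal muscle release channel Ryr1 was 252 kb from a peak. The inositol trisphosphate receptors Itpr1 and Itpr2, release channels of many cell types, had no peak although they are 338 and 394 kb long. Their distances were 78.9 and 140 kb. Of genes of like length 54 and 61% had a peak within 5 kb.

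In the group of store and junction genes 1 of 6 had a peak, against 1.68 in genes of like length. That gene was Trdn, which encodes triadin, the protein that ties calsequestrin to the ryanodine receptor (396 kb). Its peak in intron 13 of 37 was soft-masked and multi-copy throughout. Casq2, the cardiac calsequestrin that buffers stored calcium, was 28.8 kb from a peak before its start that held no multi-copy word. Casq1, the skeletal muscle form, was 49.6 kb from a peak inside Dcaf8. The junctophilin genes Jph1 and Jph2, which hold the store close to the surface membrane, were 116 and 211 kb away. Asph, whose products include junctin, was 241 kb away, and 83% of genes of like length were nearer.

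None of the 6 genes for calcium removal had a peak, and genes of like length would have given 0.940. Pln, which encodes phospholamban, the inhibitor of the calcium pump, was 12.8 kb from a peak before its start, inside the neighbouring gene Cep85l. Atp2a2, the cardiac calcium pump of the store, was 18.9 kb from a peak before its start that had no multi-copy word and lay outside any protein-coding gene. Atp2a1, the skeletal muscle pump, was 60.5 kb away, and Sln, the small atrial pump inhibitor sarcolipin, was 105 kb away. The sodium-calcium exchanger gene Slc8a1, the main exit route for calcium, is 365 kb long and was 89.1 kb from a peak before its start. Of genes of like length 59.5% had a peak within 5 kb. The exchanger gene Slc8a2 was 26.99 kb away.

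Of the 3 gap junction genes 1 had a peak, against 0.510 in genes of like length. It was Gja5, the atrial and conduction system connexin, which had 2 peaks. The GENCODE gene is 173 kb long (chr3:96904693-97077416). Its peaks lay in intron 1 and in intron 3 of 3, at 66.2 and 158 kb from the gene start. The second also overlapped the antisense RNA gene 4930573H18Rik. In RefSeq the gene is 21.2 kb long, neither peak was within 5 kb, and the nearest was 9.36 kb away. The count of this gene therefore rests on the longer annotation. Gja1, the main ventricular connexin, was 11.6 kb from a peak past its end. Gjc1, an early connexin of the embryonic heart, was 104 kb away.

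The last genes are Camk2d, the main cardiac calcium/calmodulin-dependent kinase, and Ank2, which encodes ankyrin-B, an anchor for exchangers and pumps. They are neighbours on chromosome 3, and both had peaks of their own, against 1.19 genes from like length. Camk2d (250 kb) had 1 peak at chr3:126639164-126639482 in intron 2 of 18, 43.0 kb from the gene start. At 319 bases it was the widest peak inside any of the 46 gene bodies, and it held no multi-copy word. It was the only one of the 23 with the MEF2 motif. The 130 bases around that match (chr3:126639256-126639385) are printed, with the match in capitals, and were also picked after being seen.
Camk2d peak, central part: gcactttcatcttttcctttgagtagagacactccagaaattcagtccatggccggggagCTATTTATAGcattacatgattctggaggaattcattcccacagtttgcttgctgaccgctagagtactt

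Ank2 (578 kb, minus strand) had a peak in intron 2 of 45 (chr3:127257674-127257847), 242 kb from the gene start, with a GC content of 58.0%, no soft-masked base and no multi-copy word. A second peak, in intron 1 at 98.6 kb, was made of AAAT and CA repeats. It had the lowest GC content of the 23, at 23.4%, and 76.4% of its words were multi-copy. The first is printed, like those of Kcnh2, Kcnq1 and Hcn4, as a peak with no soft-masked base and no multi-copy word.
Ank2 peak in intron 2: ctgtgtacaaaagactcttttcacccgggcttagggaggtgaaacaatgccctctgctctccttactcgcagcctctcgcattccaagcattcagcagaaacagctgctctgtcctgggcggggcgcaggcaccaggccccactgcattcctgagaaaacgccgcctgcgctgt

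Apart from the repeat past the end of Cacna2d1, the peaks were intronic. The midpoints of 22 of the 23 were in an intron of a coding transcript and 0 were in a coding transcript's exon. Intron 1 held 8 peaks and introns 1 to 3 held 17, while 12 of the 22 lay nearer to the start than to the end of the gene body. The lengths of these introns and the same counts for other genes were not examined, so these counts are a description only. Only 4 midpoints were within 5 kb of any annotated transcript start of the gene, and for the Cacna2d1 and Ryr2 peaks among them that start belonged to a transcript annotated as a retained intron. The plot of positions shows peaks spread from 2.03 to 91.7% of the way along the gene bodies.

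**Figure D3:**
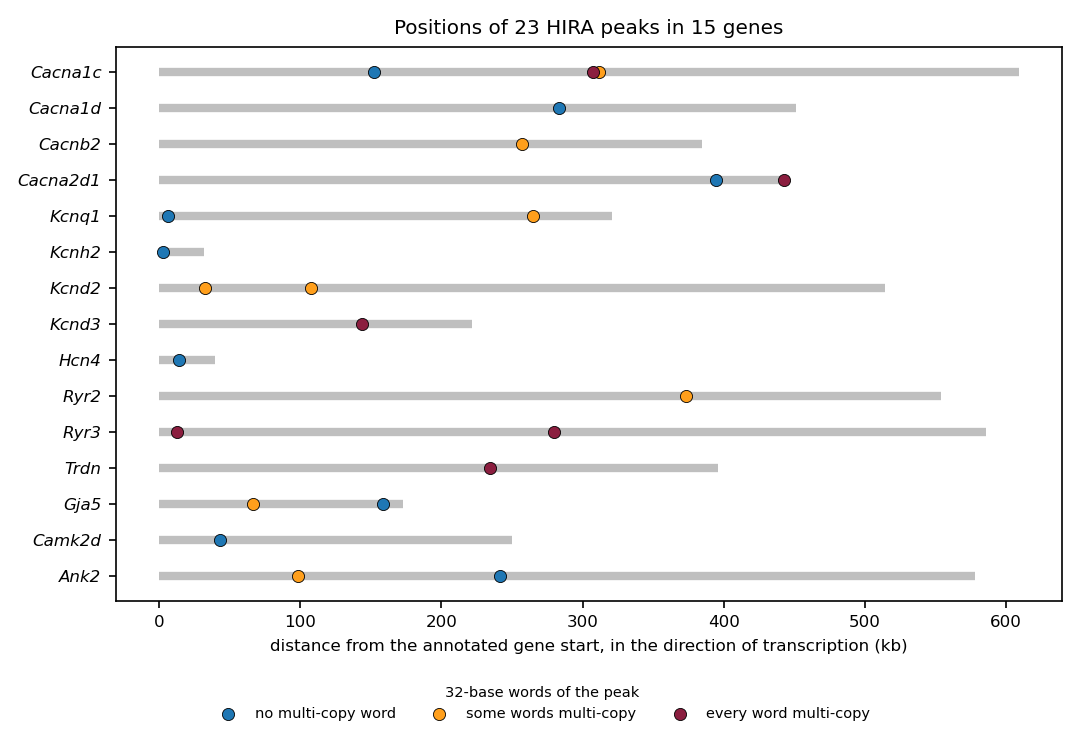
Midpoints of the 23 HIRA peaks along the 15 genes that have them, in kb from the annotated gene start in the direction of transcription (horizontal axis). Grey bars are the gene bodies to scale and colours give the share of 32-base words that are multi-copy. Blue peaks hold no multi-copy word, and only exact copies of a word are counted. The 9 blue peaks are in 9 different genes, and those of Kcnh2 and Kcnq1 are the nearest to a gene start.

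The peaks were then compared by sequence content with the 2822 peaks in or within 5 kb of other protein-coding genes and with all 6624. Of the 23 peaks, 9 held no multi-copy word (39.1%, Wilson interval 22.2 to 59.2%), against 21.6% near other protein-coding genes and 14.6% of all peaks. They were the peaks of Cacna1c at 153 kb, Cacna1d, Cacna2d1 in intron 20, Kcnq1 in intron 1, Kcnh2, Hcn4, Gja5 in intron 3, Camk2d and Ank2 in intron 2. Their GC content ran from 28.7 to 63.7% with a median of 51.5%. In 6 peaks every word was multi-copy (26.1%, 12.55 to 46.5%), against 23.4 and 32.2%. These had GC contents between 25.0 and 50.0%.

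Simple repeats did not differ from the rest of the list beyond counting error. GAGAGAGA, on either strand, was in 3 of the 23 peaks (13.0%, 4.54 to 32.1%), those of Cacna1c at 311 kb, Cacnb2 and Kcnq1 in intron 15, against 18.1% near other protein-coding genes and 16.05% of all peaks. CACACACA, on either strand, was in 6 (26.1%, 12.55 to 46.5%), against 16.2 and 13.4%. A pure tandem repeat of units up to 6 bases over at least 20 bases was in 7 (30.4%, 15.6 to 50.9%), against 41.1 and 38.1%. The reference shares lie inside the intervals of the 23 peaks for the GA and tandem repeats. For CACACACA the interval also includes both references. For peaks without a multi-copy word the interval lies above both, by a small margin over the first. In 6 of the 23 no base was soft-masked (26.1%, 12.55 to 46.5%), against 12.2 and 7.61%, with the interval placed likewise. All of these 6 but the Ryr2 peak are also among the 9 without a multi-copy word, so the 2 properties largely share their peaks. The median soft-masked share of a peak was 62.9% in the 23, against 53.4 and 82.2%, so it was not lower than near other protein-coding genes. For the 2 properties the intervals of the first reference were 20.1 to 23.2% and 11.1 to 13.5%, which overlap those of the 23 peaks. These intervals are not adjusted for the 12 properties compared and treat peaks as independent. The handling of reads with several possible placements is not given in the sources used here.

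**Figure D4:**
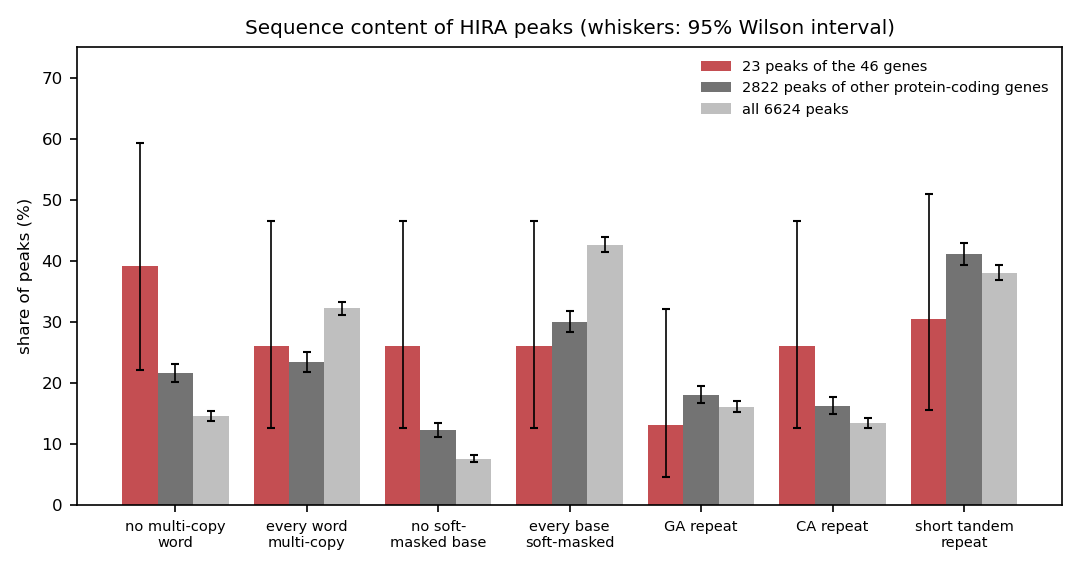
Share of peaks with each sequence property, in percent (vertical axis), for the 23 peaks of the 46 genes (red), the 2822 peaks of other protein-coding genes (dark grey) and all 6624 peaks, which include both (light grey), with whiskers for the 95% Wilson interval. The red bar for peaks without a multi-copy word is at 39.1% with a lower whisker of 22.2%, just above the grey bars at 21.6 and 14.6%. The red interval for peaks without a soft-masked base starts at 12.55%, just above 12.2 and 7.61%. All of those peaks but that of Ryr2 also hold no multi-copy word. The other red intervals span both grey bars.

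Sites of cardiac transcription factors were searched on both strands as 1 short word per factor, so other forms of a site were not counted. GATA factors (AGATAA) had a match in 3 of the 23 peaks (13.0%), against 9.36% of all peaks. They were the Cacna1c peaks at 153 and 311 kb and the Cacna2d1 repeat, whose unit AGAT is part of the word. NKX2.5 (TNAAGTG) matched in 2, the Cacna1c peak at 153 kb and the Kcnd3 peak, or 8.70% against 7.22%. MEF2 (CTANNNNTAG) matched in 1, that of Camk2d, or 4.35% against 1.84%. T-box factors (AGGTGTNA) matched in 0 of 23 (Wilson interval 0 to 14.3%), against 1.46%. The reference shares lie inside the intervals of the 23 peaks for each of these 4 words, and a match is a description of the letters only.

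For the 31 genes without a peak the nearest peak was looked up as well. It lay before the gene start in 12 and past the gene end in 19. In 12 it was inside another protein-coding gene. It was within 20 kb for 5 genes (Kcnj5, Gja1, Pln, Kcnj2 and Atp2a2) and more than 200 kb away for 11. These counts were not set beside those of other genes and describe the 31 genes only. No 2 genes of the 46 shared a nearest peak.

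The other members of the same families give a wider frame. Among 143 further protein-coding genes for sodium, calcium, potassium and pacemaker channels, calcium release channels, pumps, exchangers, calsequestrins, junctophilins, connexins and CaM kinase II, 25 had a peak within 5 kb or inside (17.5%), and genes of like length would have given 26.6. In the voltage-gated calcium channels it was 8 of 19, against 4.78 by length, with 5 peaks in Cacna2d3 (817 kb) and 3 in Cacna2d4 (116 kb). In the potassium channels it was 11 of 81, against 15.4 by length. None of the 17 other connexin genes had a peak, against 0.730 by length.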

How the data were processed

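HIRA ChIP-seq was performed on pooled E12.5 hearts. Alignment by the authors was to mm10 (Bowtie2), reads that were duplicates or of poor quality were dropped, and MACS, run in Strand NGS with the input as control, called the peaks. Per the file headers the p-value cutoff was 0.001, whereas the methods state a stricter one, and it is unclear which applies. The deposited list holds peak positions only. No count, height or score was deposited in the file used here, and the input library was used only through the peak calls.

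Positions were compared with GRCm38.p6, the mm10 build, on 21 chromosomes and are counted from 1. A gene had a peak where any base of a peak lay in its GENCODE M21 body or within 5 kb. A nearest peak is called inside another gene where any base of it overlaps that gene. Distances run from the body to the nearest peak base. For each gene the 200 other protein-coding genes nearest in log length, without the Y chromosome, gave the share with a peak and the median distance. This is a fixed neighbourhood with no draws and no p-value. Introns were numbered in the coding transcript with the greatest summed exon length that spans the peak. Each 32-base word of a peak was counted on both strands of the 21 chromosomes. Sequences are from the RefSeq copy of the assembly. Analysis used Python 3.11.15, numpy 2.4.6, pandas 2.3.3, scipy 1.17.1 and numba 0.67.0, and the interval, motif and word counts were tested on simulated data.

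The genes and lists were chosen with earlier results of these data known, and the transcription factor words were chosen after the peak sequences were seen. The GAGAGAGA word stands for repeats of GA or TC. Every gene with a peak, the 5 genes farthest from a peak and shared nearest peaks were named by rule. The other genes were named as members. Sequences were printed by rule for the peak nearest to a gene start, the longest GA run, peaks without soft-masked bases and the exonic peak, and the others were picked after being seen. A further sequence chosen in this way is not reported here. Alternatives were the gene window, the annotation, the overlap rule, the reference genes, the motif and subsets of the peaks.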

Additional observations from a re-analysis of the deposited data

How the results depend on the processing

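Of 48 alternative values for the main measures, 37 stayed close to the reported value, which here means within 1.5 times for counts and median distances and inside the 95% interval for densities, ratios and shares. The number of genes with a peak ran from 10 to 16, and the ratio to genes of like length from 1.08 to 1.39. Of the subsets of the peak list, keeping only peaks wider than the median left 14 peaks, 1.63 per Mb and a median distance of 205 kb. Keeping only peaks under 50% soft-masked left 10 peaks, 1.17 per Mb and 90.7 kb. The median over other protein-coding genes, not matched by length, was 257 kb with the wider peaks. It was 308 kb with the peaks under 50% soft-masked. Keeping only peaks with under 50% multi-copy words left 13 peaks and 1.52 per Mb. These lists hold fewer peaks by construction. Measured from the peak midpoint to the gene start, the median distance was 96.7 kb. The GAGAGAGA share was 34.8% with 1 mismatch allowed and 0% in bases that are not soft-masked. The shares of other peaks given above are for the exact word in all bases and cannot be set against these values.

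Of 60 single-gene distances 12 left 0 or changed by over 1.5 times. With RefSeq genes Gja5 lost its peaks (9.36 kb). Among the wider peaks Ank2, Cacna1d, Cacnb2, Hcn4 and Trdn lost theirs, with the nearest at 282, 724, 462, 316 and 119 kb, Cacna2d1 kept only the one past its end and Kcnj8 moved to 1192 kb. With few multi-copy words Kcnd3, Ryr2, Ryr3 and Trdn lost theirs, with the nearest at 19.8, 509, 62.7 and 119 kb. No paired analysis was possible because a single ChIP library was made, and none could be left out. The read depth is unknown, and how many weaker sites escaped detection was not estimated.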
